A study of Homo sapiens with 54 samples.

Results

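Olaparib given alone was compared between the SUM1315 and MDA-MB-468 triple negative breast cancer (TNBC) lines, in 12 of the 54 libraries of the series. The members are the 3 olaparib-treated and the 3 untreated libraries of each line, taken by their labels, with no cisplatin (CDDP) in any of them. SUM1315 cells carry a BRCA1 mutation and MDA-MB-468 cells are BRCA1 wild type, and both were parental cells, not the olaparib resistant (OlaR) derivatives that were also sequenced. SUM1315 cells were treated with 8 µM and MDA-MB-468 cells with 3 µM olaparib for 12 h (overnight in the methods), and the controls of each line were left untreated. All cells were grown in DMEM/F12 with 5% serum. Messenger RNA was measured from the 3′ ends of transcripts, so a library counts reads near each gene's polyadenylation site.

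The design sets some limits. The dose differs between the lines, so the effect of the line and the effect of the dose cannot be told apart. No solvent is described for the untreated cells, so the drug and its solvent or handling cannot be told apart either. Each BRCA1 status is represented by 1 line, and the labels do not say whether the 3 libraries of a group came from separate cultures, so p-values measure the spread between these libraries, which may be technical. In bulk RNA, a change in the number of cells of a state and a change in RNA per cell cannot be told apart.

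Olaparib is an inhibitor of PARP1 and PARP2, the enzymes that sense DNA strand breaks and mark nearby proteins with chains of ADP-ribose. Inhibited PARP1 stays on DNA, where it can stall replication forks, and the resulting breaks are repaired by homologous recombination, in which BRCA1 takes part. Cells with damaged or unreplicated DNA hold back from mitosis through the ATR and CHK1 kinases. Mitotic genes are transcribed in G2 and M by the FOXM1 and MYBL2 factors. Amino acid shortage and other stresses raise the ATF4 factor, which switches on amino acid synthesis and transport, and growth factors act through the MAP kinases on immediate early genes such as those of AP-1.

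Depth was 5737314 to 6607512 reads in untreated and 5763500 to 6943388 in olaparib-treated SUM1315 libraries, and 7210988 to 7568367 and 6867889 to 9268162 in those of MDA-MB-468. Values are adjusted read counts, that is, reads per gene that the authors had scaled to a common library size of 5585170 reads, and are given below in the order of replicates 1, 2 and 3. The scaling factors did not overlap between treated and untreated libraries, being 0.944 to 0.9697 against 0.9065 to 0.9407 in SUM1315 and 1.01 to 1.021 against 1.047 to 1.06 in MDA-MB-468. SUM1315 control 3 and SUM1315 olaparib 3 stood apart from the other libraries of their groups. The chi-square per degree of freedom over genes was 15.2 and 20.11 between control 3 and the other controls, where it was 3.592 between those, and 8.715 and 8.729 against 2.902 for olaparib 3. In MDA-MB-468 it was 2.774 to 5.881. The lines matched their labels, since KRT19, a keratin of luminal epithelium, had 18654 to 26490 reads in MDA-MB-468 and 0 to 2 in SUM1315, and VIM, the mesenchymal filament protein vimentin, had 25 to 74 and 11190 to 15544. Of the receptors that triple negative tumors lack, PGR, the progesterone receptor, had at most 3 reads in each library, ESR1, the estrogen receptor, had 3 to 25 in SUM1315 and 45 to 103 in MDA-MB-468, and ERBB2 (HER2) had 16 to 51 and 30 to 50, and the T cell gene CD3E had 0 in all of them. Among the other genes of cells that a pure line should lack, PECAM1 (endothelium) and COL3A1 (fibroblasts) had 114 to 192 and 123 to 199 reads in SUM1315, and PTPRC, CD68, VWF, LUM and DCN had at most 14 in either line.

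More genes differed with olaparib, and by more, in SUM1315 than in MDA-MB-468. In SUM1315, 2488 of 13133 genes tested (18.9%) were higher and 2244 (17.1%) lower with olaparib at an adjusted p at or under 0.05, in limma with Benjamini-Hochberg adjustment. In MDA-MB-468, 1617 of 13012 (12.4%) were higher and 1185 (9.11%) lower. With the further limit of a fold change of at least 2, which defines differentially expressed genes (DEGs) here, SUM1315 had 655 higher (4.99%) and 573 lower (4.36%). MDA-MB-468 had 85 higher (0.653%) and 141 lower (1.08%). The median absolute log2 fold change over all genes tested in both lines was 0.367 in SUM1315 and 0.205 in MDA-MB-468. The SD of a library from the mean of the other 2 was 0.442 to 0.549 in SUM1315 and 0.407 to 0.479 in MDA-MB-468. The part of this spread in the medians was not tested. Without SUM1315 control 3, the SUM1315 DEGs numbered 467 higher and 419 lower.

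Of the 11755 genes tested in both lines, 731 (6.22%) were called higher in both, 412 (3.5%) lower in both and 226 (1.92%) in opposite directions. Of the genes higher in SUM1315, 30.7% were also higher in MDA-MB-468 and 3.86% were lower there. Of the genes lower in SUM1315, 20.7% were also lower in MDA-MB-468 and 6.74% were higher. Read from the other side, 46.4% of the genes higher in MDA-MB-468 and 38.2% of those lower there moved the same way in SUM1315. The contrasts of the 2 lines share no library, and across genes their log2 fold changes had a Pearson r of 0.24, a description over genes that are not independent. As DEGs, 11 genes were higher and 29 lower in both lines, and the former were 7 without SUM1315 olaparib 2, MDA-MB-468 olaparib 1 or MDA-MB-468 olaparib 2. Of the 1143 genes that moved the same way, 978 had the larger change in SUM1315, with median absolute log2 fold changes of 0.704 and 0.401. Without both SUM1315 control 3 and SUM1315 olaparib 3, the counts were 657 higher and 355 lower in both lines and 138 in opposite directions.

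The line difference, the olaparib effect in SUM1315 minus that in MDA-MB-468 on the log2 scale, was called for 2772 genes. It was positive for 1457 (12.4%), meaning a higher effect in SUM1315, and negative for 1315 (11.2%). Among these genes, 1630 were called for olaparib only in SUM1315 and 392 only in MDA-MB-468, which is a statement about each test and not about the size of the other effect. A further 373 were called in both lines in the same direction, 226 in opposite directions and 151 in neither line.

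**Figure D1:**
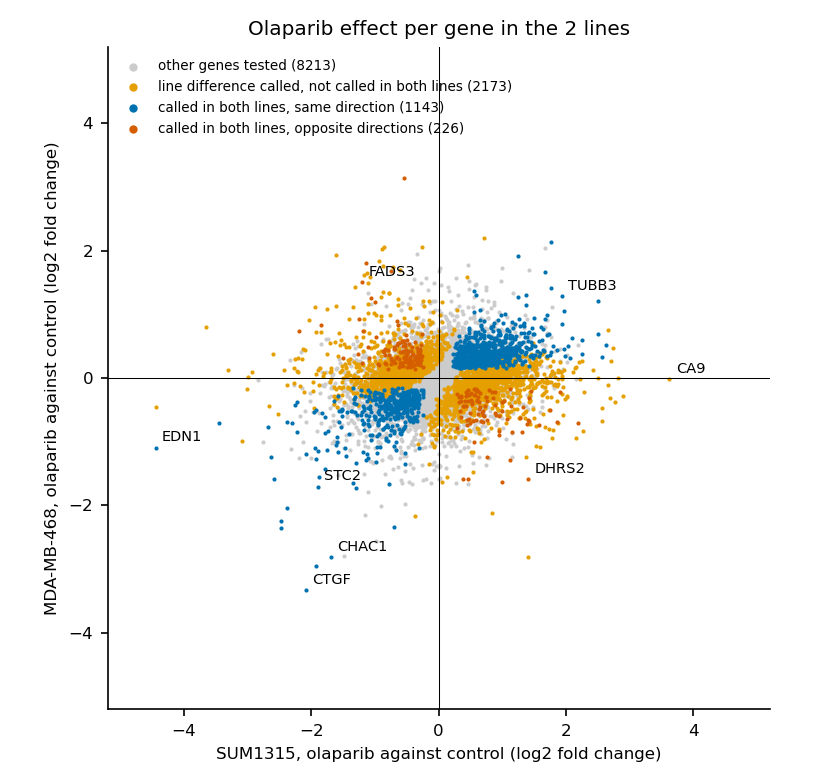
Log2 fold change of olaparib against untreated cells in MDA-MB-468 (vertical axis) against that in SUM1315 (horizontal axis) for the 11755 genes tested in both lines, with genes called in both lines coloured by direction. The cloud is wider along the SUM1315 axis (median absolute change 0.367 against 0.205), and CTGF, CHAC1 and STC2 lie far down on both axes while CA9 and EDN1 lie far out along SUM1315.

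Genes of G2 and mitosis were the group that rose most uniformly in both lines. Counts of called members for olaparib without CDDP, in this and every later list, are to be read against the shares of all genes tested. These were 18.9% higher and 17.1% lower in SUM1315 and 12.4% and 9.11% in MDA-MB-468. For the line difference they were 12.4% and 11.2%. Of the 48 members of this list, which holds cyclins, mitotic kinases, kinesins, centromere and spindle proteins, 45 were higher in SUM1315 with a median log2 fold change of 1.01, and 39 were higher in MDA-MB-468 with a median of 0.45, where the median over all genes tested was -0.0026 and 0.011. None was called lower in either line, and 36 were higher in both. For the line difference, 33 were called with a higher effect in SUM1315 and 2 with a lower one, and the median difference was 0.56. Under every alternative run, including edgeR, DESeq2 and each library left out, the median stayed at 0.95 to 1.02 in SUM1315 and 0.42 to 0.47 in MDA-MB-468. As given further below, the list stood as high in SUM1315 with CDDP alone, against the same untreated libraries.

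Promoters of this list are shown because the CHR and the CCAAT box are the elements through which cell cycle genes of G2 and M are known to be controlled. CHR was searched as TTTGAA or TTCAAA, which are the same letters on opposite strands, and the CCAAT box as CCAAT or ATTGG, in a window from 250 bases before to 50 bases after the RefSeq start site. A CHR was found in 26 of the 40 list promoters in the RefSeq table (65%), against 15.4% of all 27305 promoters and 10.1% of the 11121 promoters of genes tested in either line. A CCAAT box was found in 34 of 40 (85%), against 35.7% and 36.9%. The promoters of ANLN, the contractile ring protein anillin, of CDC20, the activator of the anaphase promoting complex, and of NUSAP1, a spindle protein, are given 5′ to 3′ on the strand of the gene from GRCh38.p14, with matches in capitals. They lie at chr7:36389612-36389911 (plus strand), chr1:43358731-43359030 (plus strand) and chr15:41332631-41332930 (plus strand). They were chosen after the values were seen, as list members called higher in both lines and holding a CHR match, by the smallest p in SUM1315. That each holds a CHR thus follows from the choice.
ANLN: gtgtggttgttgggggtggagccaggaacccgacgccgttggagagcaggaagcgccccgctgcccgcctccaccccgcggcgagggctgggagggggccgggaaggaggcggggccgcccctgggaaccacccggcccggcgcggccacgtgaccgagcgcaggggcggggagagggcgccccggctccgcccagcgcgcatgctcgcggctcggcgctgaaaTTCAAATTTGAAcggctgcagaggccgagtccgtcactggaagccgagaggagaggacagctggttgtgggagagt
CDC20: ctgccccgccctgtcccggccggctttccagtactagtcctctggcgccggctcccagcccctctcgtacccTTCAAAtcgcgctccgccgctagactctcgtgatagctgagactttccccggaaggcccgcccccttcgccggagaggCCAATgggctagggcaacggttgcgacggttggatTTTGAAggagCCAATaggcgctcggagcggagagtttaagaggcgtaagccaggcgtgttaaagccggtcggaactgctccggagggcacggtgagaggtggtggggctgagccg
NUSAP1: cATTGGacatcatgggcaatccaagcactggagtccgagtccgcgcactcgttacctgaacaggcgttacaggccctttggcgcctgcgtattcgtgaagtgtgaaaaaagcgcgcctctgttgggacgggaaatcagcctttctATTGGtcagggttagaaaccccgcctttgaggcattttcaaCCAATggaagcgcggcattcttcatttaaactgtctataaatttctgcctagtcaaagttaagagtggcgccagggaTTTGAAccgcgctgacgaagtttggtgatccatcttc
CDC20 and NUSAP1 hold both kinds of match in this window, and ANLN holds only CHR letters.

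ANLN (chromosome 7, 36389862 to 36453791) had 265, 293 and 270.0 adjusted read counts in untreated and 706, 744 and 732 in olaparib-treated SUM1315 libraries. In MDA-MB-468 the counts were 914, 929 and 1018 without and 1437, 1389 and 1453 with olaparib. The treated libraries lay above the controls in both lines without overlap, with log2 fold changes of 1.40 (SE 0.10, adjusted p = 3.70e-13) in SUM1315 and 0.58 (SE 0.07, adjusted p = 2.01e-09) in MDA-MB-468. Its line difference was 0.81 (SE 0.11, adjusted p = 1.91e-07). CDC20 and NUSAP1 had log2 fold changes of 1.45 and 0.98 in SUM1315 and of 0.56 and 0.38 in MDA-MB-468, and all were called (adjusted p of 9.24e-12, 1.43e-10, 3.43e-07 and 1.56e-06).

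Some list members rose in SUM1315 with no call in MDA-MB-468. CENPA, the histone variant of centromeres, had 56.8, 65 and 34.3 counts in untreated and 199, 182 and 153 in treated SUM1315 cells, a log2 fold change of 1.8 (SE 0.19, adjusted p = 5.10e-09). In MDA-MB-468 it had 484, 552 and 521 without and 752, 695 and 466 with olaparib, groups that overlap, with a log2 fold change of 0.27 (SE 0.11, adjusted p = 0.083). HMMR, a spindle and hyaluronan binding protein, and SGO2, which protects cohesin at centromeres, had log2 fold changes of 1.32 and 1.04 in SUM1315 against 0.09 and -0.02 in MDA-MB-468. The line difference was called for all 3, with adjusted p of 9.39e-07, 6.53e-07 and 1.74e-06.

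Genes of S phase moved less uniformly. Of the E2F targets and replication genes, 15 of 43 tested were higher and 6 lower in SUM1315, and 15 of 44 were higher and 3 lower in MDA-MB-468, with 11 higher in both and medians of 0.13 and 0.10. RRM2, the small subunit of ribonucleotide reductase, had 303, 328 and 249.5 counts without and 656, 706 and 749.5 with olaparib in SUM1315, and 1862, 1885 and 2029 without and 3658, 3881 and 3426 with olaparib in MDA-MB-468. Every treated library was above every control, with log2 fold changes of 1.27 (SE 0.10, adjusted p = 7.95e-12) and 0.92 (SE 0.05, adjusted p = 6.39e-20). Its line difference of 0.34 was called, but the call was lost without SUM1315 control 3 (0.23, adjusted p = 0.132), SUM1315 olaparib 3 (0.0617), MDA-MB-468 control 3 (0.0611) or MDA-MB-468 olaparib 3 (0.0677). TK1, a thymidine kinase of S phase, rose in both lines (log2 fold changes 1.39 and 0.64). CDC6, which licenses replication origins, had a log2 fold change of -0.34 (SE 0.09, adjusted p = 0.00332) in SUM1315 and 0.10 (SE 0.07, adjusted p = 0.346) in MDA-MB-468.

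Of nucleotide metabolism genes, 9 of 26 were higher and 4 lower in SUM1315 and 11 of 27 were higher and 1 lower in MDA-MB-468. UPP1, which splits uridine, had 426, 419 and 436 counts without and 173, 148 and 147 with olaparib in SUM1315, a fall with log2 fold change -1.45 (SE 0.14, adjusted p = 4.77e-10), and its log2 fold change in MDA-MB-468 was 0.15 (SE 0.07, adjusted p = 0.122). CTPS1, the CTP synthase, fell in SUM1315 (-0.41) and rose in MDA-MB-468 (0.37), with a line difference of -0.78 (SE 0.12, adjusted p = 3.82e-06).

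The shared higher genes with the largest changes came from several functions. TUBB3, a beta tubulin of neurons (chromosome 16, 89921925 to 89936097), had 334, 355 and 343 counts without and 1387, 1370.0 and 1222 with olaparib in SUM1315. In MDA-MB-468, where it was far less abundant, it had 19.8, 10.3 and 9.79 without and 21.1, 40.3 and 39.1 with olaparib. The log2 fold changes were 1.94 (SE 0.10, adjusted p = 9.12e-16) and 1.29 (SE 0.29, adjusted p = 0.000687), and the line difference of 0.65 was not called (adjusted p = 0.0851). TUBB2A, another beta tubulin whose reads may be shared with the near-identical TUBB2B, had log2 fold changes of 1.38 and 1.14.

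SPC24, a kinetochore subunit, had 69.6, 58 and 45.6 counts without and 189, 159 and 219.8 with olaparib in SUM1315, and 228, 259 and 249 without and 479, 476 and 502 with olaparib in MDA-MB-468. Its groups did not overlap in either line, with log2 fold changes of 1.70 (SE 0.14, adjusted p = 3.81e-11) and 0.98 (SE 0.08, adjusted p = 1.01e-13). CDKN2C, the CDK4 and CDK6 inhibitor p18, rose from similar levels in the 2 lines, from 72.7, 64.3 and 87.8 to 209, 226 and 201 counts in SUM1315 and from 87.8, 106 and 91.1 to 186, 181 and 179 in MDA-MB-468. Its log2 fold changes were 1.5 (SE 0.16, adjusted p = 5.61e-09) and 0.94 (SE 0.14, adjusted p = 1.35e-06). GMPR, GMP reductase, and the antisense RNA NCK1-AS1 rose by log2 fold changes of 1.04 and 0.99 in SUM1315 and of 1.00 and 0.99 in MDA-MB-468. Without MDA-MB-468 control 1, GMPR lost its call there (0.76, adjusted p = 0.1). Reads of NCK1-AS1 and NCK1 cannot be told apart unless the counting used strand, which the sources used here do not say. The cytokine gene IL15 was at the edge of the threshold (log2 fold changes 1.67 and 0.93, adjusted p = 0.023 and 0.0339), with 7 to 53 counts per library. IL15 lost the call in SUM1315 without control 3, olaparib 2 or olaparib 3 (adjusted p = 0.0796, 0.127 and 0.0526) and in MDA-MB-468 without control 2, control 3 or olaparib 1 (0.166, 0.0509 and 0.166).

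The integrated stress response, the ATF4 program, was the group that fell most uniformly in both lines. Of its 34 members tested, 26 were lower and 1 higher in SUM1315, with a median log2 fold change of -0.85, and 30 were lower and 1 higher in MDA-MB-468, with a median of -0.61. Of these, 24 were lower in both lines and 1, SLC7A11, moved in opposite directions. The line difference was positive for 5 and negative for 12. The list holds the amino acid synthesis enzymes, amino acid transporters, tRNA synthetases and stress factors that ATF4 is known to activate.

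Promoters of this list were searched on both strands for the letters TGATGCAA and TGATGAAA, the composite element bound by ATF4 with a C/EBP partner. The element was present in 5 of the 29 list promoters in the RefSeq table (17.2%), against 2% of all promoters and 0.89% of those of genes tested in either line. Of the promoters of genes lower in both lines, a set that includes members of this list, 13 of 330 (3.94%) had it.

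CHAC1, which degrades glutathione (chromosome 15, 40953471 to 40956512), had 508, 538 and 595 counts in untreated and 178, 182 and 148 in treated SUM1315 libraries. MDA-MB-468 cells had 347, 375 and 312 without and 42.1, 58.9 and 44.8 with olaparib. All treated libraries lay below the controls, with log2 fold changes of -1.69 (SE 0.18, adjusted p = 4.79e-09) in SUM1315 and -2.81 (SE 0.13, adjusted p = 9.69e-23) in MDA-MB-468. The fall was larger in MDA-MB-468, with a line difference of 1.12 (SE 0.22, adjusted p = 0.000121). ASNS, asparagine synthetase, and AARS, alanyl-tRNA synthetase, had log2 fold changes of -1.90 and -1.12 in SUM1315 against -1.14 and -0.36 in MDA-MB-468, with line differences of -0.76 (SE 0.17, adjusted p = 0.000524) and -0.77 (SE 0.11, adjusted p = 2.72e-07). Here the fall was larger in SUM1315.

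STC2, stanniocalcin, a secreted glycoprotein, had 1830.0, 1858 and 1181 counts without and 425, 473 and 384 with olaparib in SUM1315, and 746, 859 and 868 without and 247, 236 and 274 with olaparib in MDA-MB-468. Its log2 fold changes of -1.90 (SE 0.14, adjusted p = 9.24e-13) and -1.71 (SE 0.08, adjusted p = 4.91e-22) had a difference that was not called (-0.19, adjusted p = 0.435). ADM2, the peptide hormone intermedin, fell by log2 fold changes of -1.87 and -1.55 from 99 to 168 counts in the untreated libraries of both lines. The pseudokinase TRIB3 and the stress factor DDIT3 (CHOP) had log2 fold changes of -1.57 and -1.41 in SUM1315 and of -1.16 and -0.87 in MDA-MB-468, all called.

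Other members fell much more in SUM1315. ATF4 itself had 4958, 4729 and 7591 counts without and 2193, 2129 and 2290.0 with olaparib in SUM1315, the third control being the highest. The MDA-MB-468 libraries had 3735, 3895 and 3726 without and 3451, 3281 and 3444 with olaparib, groups that did not overlap but lay close. These are log2 fold changes of -1.35 (SE 0.12, adjusted p = 1.82e-10) and -0.16 (SE 0.05, adjusted p = 0.0241), and the call in MDA-MB-468 was lost without its control 2 (adjusted p = 0.101) or olaparib 2 (adjusted p = 0.11). NUPR1, a stress-induced chromatin protein, had 1355, 1451 and 1621 counts without and 319, 241 and 344 with olaparib in SUM1315, and 703, 756 and 756 without and 446, 450.5 and 463 with olaparib in MDA-MB-468. The line difference was -1.60 (SE 0.17, adjusted p = 4.59e-10). GPT2, the mitochondrial alanine aminotransferase, had log2 fold changes of -1.64 and -0.36, with a line difference of -1.28 (SE 0.15, adjusted p = 1.67e-09).

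SLC7A11, the cystine importer, is a target of both ATF4 and the oxidative stress factor NRF2, and it went against the rest of the list in SUM1315. It had 1395, 1679 and 1046 counts without and 1877, 2005 and 1704 with olaparib in SUM1315, where the groups did not overlap, and 379, 374 and 390.5 without and 165, 93.7 and 129 with olaparib in MDA-MB-468. This gave log2 fold changes of 0.46 (SE 0.12, adjusted p = 0.00271) and -1.59 (SE 0.12, adjusted p = 7.15e-15), and the line difference was 2.05 (SE 0.18, adjusted p = 7.83e-13). The call in SUM1315 was lost without control 3 (0.28, adjusted p = 0.0559), while the line difference was called in every fit run.

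Immediate early genes were lower in both lines for 9 members of their list, and no member was called higher. Of 24 AP-1 and immediate early genes, 15 were lower and 0 higher in SUM1315 (median log2 fold change -0.56), and of 23 in MDA-MB-468, 13 were lower and 0 higher (median -0.52), with 9 lower in both. The AP-1 element TGANTCA, where N is any base, was in 1 of 18 promoters of this list (5.56%). It was in 7.76% of all promoters and 4.69% of those of genes tested in either line. CTGF, connective tissue growth factor (chromosome 6, 131948176 to 131951372), had 43.4, 34.2 and 33.1 counts without and 10.3, 6.72 and 7 with olaparib in SUM1315. In MDA-MB-468 it had 232, 221 and 195 without and 19.2, 16.4 and 27.1 with olaparib. Treated and untreated libraries were far apart in both lines, with log2 fold changes of -2.08 (SE 0.30, adjusted p = 1.36e-06) and -3.34 (SE 0.19, adjusted p = 6.39e-20) and a line difference of 1.25 (SE 0.34, adjusted p = 0.00519). EGR1, an early growth response factor, had log2 fold changes of -1.14 (SE 0.14, adjusted p = 5.18e-08) and -1.29 (SE 0.13, adjusted p = 1.88e-11). IER2, another immediate early gene, had -1.38 (SE 0.12, adjusted p = 4.37e-11) in SUM1315 and -0.52 (SE 0.09, adjusted p = 4.91e-06) in MDA-MB-468, with a line difference of -0.85. NR4A1, an orphan nuclear receptor, fell in MDA-MB-468 (-1.63 (SE 0.23, adjusted p = 3.00e-07)) and had a log2 fold change of 0.05 (SE 0.36, adjusted p = 0.927) in SUM1315, where it had 10 to 30 counts.

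Among feedback regulators of MAP kinase signalling, 11 of 22 were lower and 2 higher in SUM1315 and 8 of 21 were lower and 0 higher in MDA-MB-468. DUSP5, a nuclear ERK phosphatase, had 883, 1004 and 1108 counts without and 210.2, 249.7 and 182 with olaparib in SUM1315, and 199, 213 and 204 without and 142, 159 and 174 with olaparib in MDA-MB-468. The fall was large in SUM1315 (-2.22 (SE 0.11, adjusted p = 2.04e-16)) and small in MDA-MB-468 (-0.38 (SE 0.13, adjusted p = 0.0336)), and the line difference was -1.84 (SE 0.18, adjusted p = 2.53e-11). The call in MDA-MB-468 was lost without control 1, 2 or 3 (adjusted p = 0.0575, 0.101 and 0.0702) or without olaparib 1 or 2 (0.162 and 0.0697). DUSP6, the cytoplasmic ERK phosphatase, had log2 fold changes of -1.12 (SE 0.09, adjusted p = 3.59e-11) and -0.82 (SE 0.38, adjusted p = 0.121), the latter at 13 to 36 counts. CCND1, cyclin D1, had log2 fold changes of -0.64 (SE 0.10, adjusted p = 2.31e-06) and -0.05 (SE 0.07, adjusted p = 0.663), and its line difference was -0.59 (SE 0.12, adjusted p = 0.000102).

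Of the EGF receptor family and its ligands, 7 of 14 were lower and 2 higher in SUM1315 and 3 of 11 were lower in MDA-MB-468. HBEGF had 488, 477 and 623 counts without and 115, 95 and 116 with olaparib in SUM1315, a log2 fold change of -2.27 (SE 0.14, adjusted p = 3.02e-14), and was at 15 counts or fewer in MDA-MB-468. TGFA, another ligand, had 378, 357 and 385 counts without and 230.3, 194 and 139 with olaparib in SUM1315, and 96.8, 79.1 and 87.7 without and 124, 94 and 114 with olaparib in MDA-MB-468. The changes on the log2 scale were -1.02 (SE 0.15, adjusted p = 3.19e-06) and 0.32 (SE 0.18, adjusted p = 0.201), with a line difference of -1.34 (SE 0.24, adjusted p = 2.24e-05). AREG, amphiregulin, had log2 fold changes of -1.88 in SUM1315 and -0.11 at 22 counts or fewer in MDA-MB-468. The receptor inhibitor ERRFI1 fell in both lines (-1.75 (SE 0.11, adjusted p = 3.91e-14) and -1.13 (SE 0.12, adjusted p = 1.47e-10)).

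The genes that follow complete the shared falls with the largest changes. KRT75, a hair follicle keratin, had 582, 690.4 and 938 counts without and 131, 133 and 152 with olaparib in SUM1315, and 44.9, 54.9 and 43.4 without and 16.9, 4.71 and 14.7 with olaparib in MDA-MB-468, with log2 fold changes of -2.38 (SE 0.15, adjusted p = 2.86e-14) and -2.05 (SE 0.48, adjusted p = 0.00113). THBS1, thrombospondin, had 538, 540.1 and 425 counts without and 99.5, 141 and 159 with olaparib in SUM1315, and 131, 130.1 and 138 without and 63.8, 55.7 and 45.3 with olaparib in MDA-MB-468. The zinc importer SLC39A10 had log2 fold changes of -1.46 (SE 0.11, adjusted p = 5.19e-12) and -1.23 (SE 0.15, adjusted p = 7.47e-09). CD14, the lipopolysaccharide co-receptor of myeloid cells, had 459, 399.5 and 409.6 counts without and 62.5, 66.4 and 72 with olaparib in SUM1315, a log2 fold change of -2.64 (SE 0.30, adjusted p = 2.26e-08). In MDA-MB-468 the call of CD14 (-1.24 (SE 0.44, adjusted p = 0.0364)) was lost without control 1 or 2 (adjusted p = 0.0697 and 0.156) and without olaparib 2 or 3 (0.14 and 0.1).

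**Figure D2:**
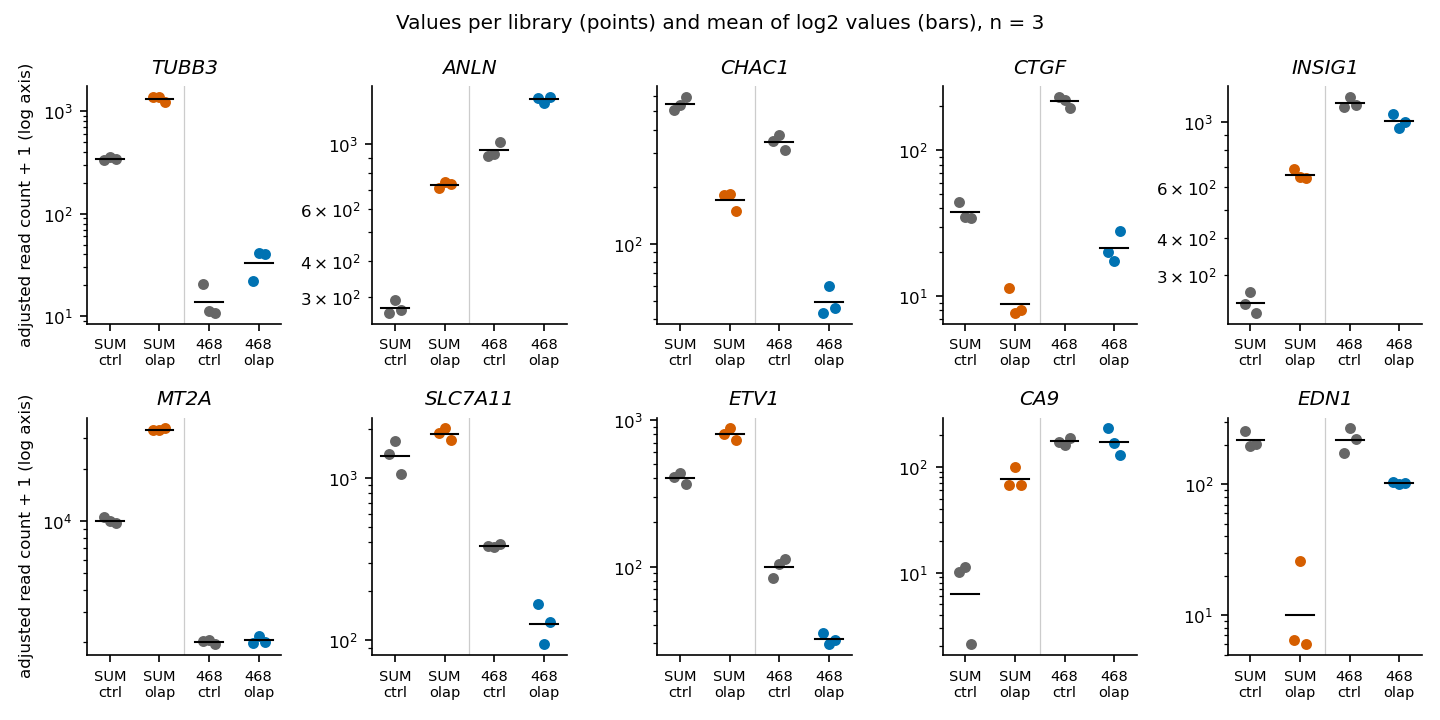
Adjusted read counts (log axis) in each of the 12 libraries for TUBB3, ANLN, CHAC1, CTGF, INSIG1, MT2A, SLC7A11, ETV1, CA9 and EDN1, untreated beside olaparib-treated within each line, with points for libraries and bars for group means. TUBB3 and ANLN lie higher and CHAC1 and CTGF lower with olaparib in both lines, SLC7A11 and ETV1 move apart, and INSIG1, MT2A, CA9 and EDN1 move mainly in SUM1315.

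Cholesterol synthesis genes were mostly higher in SUM1315 and mostly without a call in MDA-MB-468. These genes are driven by SREBP2 when sterols in the endoplasmic reticulum are low. In SUM1315, 16 of 24 were higher and 1 lower (median log2 fold change 0.72), while in MDA-MB-468 1 of 25 was higher and 6 lower (median -0.08). The line difference was called for 13 of 24, all with a higher effect in SUM1315, and its median was 0.80. With CDDP alone, the list stood at a similar level in SUM1315, as given further below. INSIG1, the sterol-sensing retention protein (chromosome 7, 155297878 to 155310235), had 237, 262 and 221 counts without and 692, 648 and 639.5 with olaparib in SUM1315. MDA-MB-468 cells had 1123, 1218 and 1141 without and 1065, 955 and 998 with olaparib. The log2 fold changes were 1.46 (SE 0.10, adjusted p = 6.76e-13) and -0.21 (SE 0.07, adjusted p = 0.0215), and the line difference was 1.66 (SE 0.12, adjusted p = 5.66e-16). The call in MDA-MB-468 was lost without control 2, olaparib 2 or olaparib 3 (adjusted p = 0.114, 0.118 and 0.0514).

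The enzymes MSMO1, FDFT1 (squalene synthase) and DHCR7 had log2 fold changes of 1.46, 0.83 and 1.05 in SUM1315. In MDA-MB-468 the same genes had -0.07, -0.10 and 0.04, none of them called, and each line difference was called. The list did not move as 1 in SUM1315. SQLE, squalene epoxidase, had -0.03 in SUM1315 (adjusted p = 0.854) and fell in MDA-MB-468 (-0.29). Of fatty acid synthesis genes, 4 of 15 were higher and 1 lower in SUM1315 and 0 were higher and 3 lower in MDA-MB-468, with SREBF1, the SREBP1 gene, at a line difference of 1.16 (SE 0.26, adjusted p = 0.000613). Of LXR targets, 4 of 12 were higher and 5 lower in SUM1315 and 1 of 9 was higher and 1 lower in MDA-MB-468. The shares of all genes tested were 18.9% higher and 17.1% lower in SUM1315 and 12.4% and 9.11% in MDA-MB-468.

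NRF2 and glutathione genes, which defend against oxidants, also differed. In SUM1315, 15 of 25 were higher and 2 lower (median 0.46), in MDA-MB-468 5 of 25 were higher and 7 lower (median -0.05), and the line difference was called for 13 higher and 2 lower of 24. NQO1, a quinone reductase, had 1655, 1761 and 1373 counts without and 3769, 4077 and 3780.0 with olaparib in SUM1315, and 640.1, 727 and 629 without and 755, 741 and 739.8 with olaparib in MDA-MB-468. The log2 fold changes of NQO1 were 1.29 (SE 0.08, adjusted p = 6.87e-14) and 0.17 (SE 0.07, adjusted p = 0.0766), and its line difference was 1.12 (SE 0.10, adjusted p = 5.51e-12). FTL, the ferritin light chain, had log2 fold changes of 1.09 (SE 0.09, adjusted p = 1.11e-11) and -0.13 (SE 0.08, adjusted p = 0.258). AKR1C1, a ketosteroid reductase, rose in SUM1315 (1.07 (SE 0.11, adjusted p = 2.14e-09)) and fell in MDA-MB-468 (-0.65 (SE 0.13, adjusted p = 0.000155)). FTL has processed pseudogenes and AKR1C1 near-identical relatives, so their counts are uncertain. HMOX1, heme oxygenase, had a log2 fold change of 0.21 (SE 0.15, adjusted p = 0.265) in SUM1315 and fell in MDA-MB-468 (-0.73 (SE 0.10, adjusted p = 1.42e-07)).

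Metallothioneins, which bind zinc and copper, were tested for 5 genes in each line, with 4 higher in SUM1315 and 2 higher and 1 lower in MDA-MB-468. MT2A had 10500.0, 9986 and 9724 counts without and 33480.0, 33440.0 and 34330.0 with olaparib in SUM1315, among the most abundant transcripts named here. The MDA-MB-468 libraries had 2045, 2050.0 and 1949 without and 1969, 2177 and 2018 with olaparib, and the groups overlapped. These are log2 fold changes of 1.75 (SE 0.08, adjusted p = 7.33e-18) and 0.03 (SE 0.05, adjusted p = 0.785), with a line difference of 1.72 (SE 0.08, adjusted p = 2.25e-24). MT1X rose in both lines (0.78 (SE 0.09, adjusted p = 1.8e-08) and 0.65 (SE 0.12, adjusted p = 3.53e-05)), and its line difference of 0.13 was not called (adjusted p = 0.573). Metallothionein genes are alike in sequence, so reads may be split among them.

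Hypoxia response genes, targets of HIF1 and HIF2, were higher for 19 of 32 and lower for 3 in SUM1315 (median 0.45), and higher for 5 and lower for 5 of 30 in MDA-MB-468 (median 0.10). CA9, a carbonic anhydrase of the cell surface (chromosome 9, 35673928 to 35681159), had 9.09, 10.3 and 1.10 counts without and 66.1, 98.9 and 66 with olaparib in SUM1315. In MDA-MB-468 it had 173, 160.3 and 188 without and 231, 169 and 129.6 with olaparib, where the treated libraries lay on both sides of the controls. This gave log2 fold changes of 3.62 (SE 0.43, adjusted p = 4.17e-08) and -0.01 (SE 0.19, adjusted p = 0.97), with the former resting on at most 10 counts in the controls, and the line difference of 3.64 (SE 0.50, adjusted p = 1.85e-07) was the largest positive one among the named genes.

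The glycolytic enzymes ALDOC and LDHA had log2 fold changes of 1.86 (SE 0.19, adjusted p = 1.82e-09) and 1.26 (SE 0.10, adjusted p = 9.24e-12) in SUM1315, and line differences of 2.56 and 1.09. VEGFA, the endothelial growth factor, fell in both lines (-0.73 (SE 0.09, adjusted p = 9.84e-08) and -0.48 (SE 0.10, adjusted p = 0.000287)). EDN1, endothelin (chromosome 6, 12230516 to 12297194), had 257, 196 and 203 counts without and 5.43, 24.8 and 5 with olaparib in SUM1315, and 174, 267 and 221 without and 104, 100 and 101 with olaparib in MDA-MB-468. The groups were apart in both lines, with log2 fold changes of -4.45 (SE 0.43, adjusted p = 7.47e-10) and -1.09 (SE 0.13, adjusted p = 3.67e-09) and a line difference of -3.35 (SE 0.49, adjusted p = 5.83e-07). The letters ACGTG, the core of the hypoxia element, were found on either strand in 17 of 28 list promoters (60.7%), against 21.6% of all promoters and 26.3% of those of genes tested in either line. In the other lists the share with these letters ran from 6.67% (S100 family) to 50% (base excision and single-strand break repair).

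Interferon-stimulated genes were higher for 17 of 39 and lower for 2 in SUM1315 (median 0.58) and higher for 7 of 33 and lower for 3 in MDA-MB-468 (median 0.12), with 5 higher in both. IFIT2, an antiviral RNA-binding protein, had 53.8, 57.9 and 56.9 counts without and 281, 265 and 276 with olaparib in SUM1315, and 20.9, 28 and 28.8 without and 15.6, 14.9 and 11.9 with olaparib in MDA-MB-468. Its log2 fold changes were 2.27 (SE 0.16, adjusted p = 4.65e-13) and -0.83 (SE 0.34, adjusted p = 0.0748), and its line difference was 3.09 (SE 0.35, adjusted p = 1.64e-09). SAMD9, an antiviral restriction factor, and IRF7, an interferon regulatory factor, had log2 fold changes of 1.93 (SE 0.18, adjusted p = 5.73e-10) and 1.87 (SE 0.32, adjusted p = 1.83e-05) in SUM1315, and -0.26 and -0.36 with no call in MDA-MB-468. BST2, tetherin, rose in SUM1315 (0.62) and fell in MDA-MB-468 (-0.30, adjusted p = 0.0562 without olaparib 2). ISG15, a ubiquitin-like protein, rose in both lines (1.06 (SE 0.13, adjusted p = 7.77e-08) and 0.63 (SE 0.18, adjusted p = 0.00905)), with the latter call lost without control 3 (0.47, adjusted p = 0.0955). When only the groups compared were fitted, the count of higher members in MDA-MB-468 went from 7 to 2. The line difference of this list beside CDDP is given further below.

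NF-kB targets were tested for 38 genes in SUM1315, with 6 higher and 17 lower (median -0.32), and for 21 in MDA-MB-468, with 0 higher and 2 lower. CXCL8, the chemokine interleukin 8, had 4340.0, 4702 and 3536 counts without and 1601, 1710.0 and 1181 with olaparib in SUM1315, a log2 fold change of -1.49 (SE 0.15, adjusted p = 7.90e-10). MDA-MB-468 cells had 0 counts in 5 of 6 libraries and 2 in the other, so its line difference holds no information on that line. SOD2, the mitochondrial superoxide dismutase, and CSF1, a macrophage growth factor, went the other way in SUM1315 (0.89 (SE 0.12, adjusted p = 9.23e-07) and 1.06 (SE 0.14, adjusted p = 3.61e-07)).

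Of keratins, 10 of 16 were lower and 3 higher in SUM1315 (median -1.32) and 4 of 17 were lower and 5 higher in MDA-MB-468 (median 0.09). KRT16, a stress keratin of epidermis, had 127, 141 and 142 counts without and 36.6, 31.6 and 21 with olaparib in SUM1315, and 24.2, 51.2 and 41.9 without and 69.9, 65 and 55 with olaparib in MDA-MB-468. It fell in SUM1315 (-2.20 (SE 0.27, adjusted p = 5.86e-08)) and rose in MDA-MB-468 (0.74 (SE 0.17, adjusted p = 0.00116)), for a line difference of -2.94 (SE 0.32, adjusted p = 4.00e-10). The call in MDA-MB-468 was lost without control 1 (0.43, adjusted p = 0.0679). KRT7, a keratin of simple epithelium, fell in both (-1.33 (SE 0.10, adjusted p = 7.94e-12) and -0.39 (SE 0.07, adjusted p = 1.95e-05)).

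S100 calcium-binding proteins were higher for 9 of 13 and lower for 1 in SUM1315 and higher for 5 of 13 and lower for 1 in MDA-MB-468. S100A8, a calprotectin subunit, had 3873, 4720.0 and 3276 counts without and 9324, 8862 and 8843 with olaparib in SUM1315, and 333, 323 and 341 without and 315, 372 and 264 with olaparib in MDA-MB-468. It rose by a log2 fold change of 1.20 (SE 0.11, adjusted p = 3.16e-10) in SUM1315, with a line difference of 1.28 (SE 0.18, adjusted p = 2.79e-07). S100A10, the annexin partner p11, rose in both (1.63 (SE 0.09, adjusted p = 5.47e-16) and 0.59 (SE 0.06, adjusted p = 2.68e-10)). Histone genes of the replication-dependent kind, read here only from polyadenylated transcripts, were higher for 3 of 13 in SUM1315 and higher for 1 and lower for 4 of 14 in MDA-MB-468. Of all genes tested, 18.9% were higher in SUM1315, and 12.4% were higher and 9.11% lower in MDA-MB-468.

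Targets of the aryl hydrocarbon receptor, which senses aromatic compounds, were few, with 3 of 6 higher in SUM1315 and 2 of 5 lower in MDA-MB-468. TIPARP, a mono-ADP-ribosyl transferase that is one of them, had 124, 157 and 89.2 counts without and 301, 342 and 259.8 with olaparib in SUM1315, and 88.1, 96.5 and 89.7 without and 46, 44.5 and 62 with olaparib in MDA-MB-468. It rose in SUM1315 (1.31 (SE 0.19, adjusted p = 1.49e-06)) and fell in MDA-MB-468 (-0.85 (SE 0.20, adjusted p = 0.00123)). CYP1B1, a cytochrome P450, had 97.1, 82.9 and 102 counts without and 244, 178 and 198 with olaparib in SUM1315, and 5185, 5360.0 and 5204 without and 4753, 4392 and 4920.0 with olaparib in MDA-MB-468. Its line difference was 1.28 (SE 0.16, adjusted p = 1.79e-08).

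Genes that moved in opposite directions were led by DHRS2, a short chain dehydrogenase (chromosome 14, 23630115 to 23645639). It had 55, 63 and 27.1 counts without and 164, 116 and 95.9 with olaparib in SUM1315, and 318, 325 and 328 without and 115, 84.3 and 126 with olaparib in MDA-MB-468. The groups did not overlap in either line, and the log2 fold changes were 1.40 (SE 0.34, adjusted p = 0.00132) and -1.59 (SE 0.25, adjusted p = 2.11e-06). ETV1, an ETS factor downstream of MAP kinases (chromosome 7, 13891229 to 13991425), had 407, 432 and 365 counts without and 795, 875 and 728 with olaparib in SUM1315. The MDA-MB-468 libraries had 83, 104 and 111 without and 34.1, 28.6 and 30.5 with olaparib. It rose in SUM1315 (0.99 (SE 0.10, adjusted p = 4.26e-09)) and fell in MDA-MB-468 (-1.64 (SE 0.24, adjusted p = 6.70e-07)), so the line difference was 2.63 (SE 0.22, adjusted p = 2.61e-13).

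FADS3, a fatty acid desaturase family gene, went the other way, with 1563, 1651 and 1747 counts without and 714, 749 and 694 with olaparib in SUM1315 and 15.9, 8.03 and 11.6 without and 39.1, 34.5 and 30.2 with olaparib in MDA-MB-468. The changes on the log2 scale were -1.20 (SE 0.11, adjusted p = 9.68e-11) and 1.51 (SE 0.30, adjusted p = 0.000106). PEG10, a retrotransposon-derived imprinted gene, and IFNGR1, the interferon gamma receptor, rose in SUM1315 (0.95 and 1.15) and fell in MDA-MB-468 (-0.90 and -0.84), with line differences of 1.84 (SE 0.11, adjusted p = 4.28e-19) and 1.99 (SE 0.22, adjusted p = 1.10e-09). SNORA11F, a small nucleolar RNA gene whose reads may come from its host transcript, had log2 fold changes of -0.75 and 1.68, and its call in SUM1315 (adjusted p = 0.0417) was lost in 5 of the 6 fits without 1 library, with the largest shift without control 3 (-0.49, adjusted p = 0.263).

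The other genes with the largest line differences were called in SUM1315 and had no call in MDA-MB-468. The water and glycerol channel AQP3 had 22.3, 45.2 and 10.5 counts without and 163, 148 and 105 with olaparib there, a log2 fold change of 2.57 (SE 0.32, adjusted p = 1.25e-07), against -0.46 in MDA-MB-468. FAM83A, an EGF receptor pathway scaffold, and SOCS3, the cytokine signalling inhibitor, had log2 fold changes of 2.78 and 1.77 in SUM1315 against -0.37 and -0.95. CRTC2, a CREB coactivator, rose in SUM1315 (2.56 (SE 0.53, adjusted p = 0.000238)), but its line difference of 3.23 (SE 0.90, adjusted p = 0.0057) rested on MDA-MB-468 olaparib 3, with 5 counts where the other treated libraries of that line had 60 and 62, and without it the difference was 2.07 with an adjusted p of 0.0696. Falls in SUM1315 led to negative differences for OLFM2, an olfactomedin (-3.43), SCUBE3, a secreted EGF-domain protein (-2.34), LTB4R, the leukotriene B4 receptor (-2.07), and WNT10B, a WNT ligand (-2.05).

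**Figure D3:**
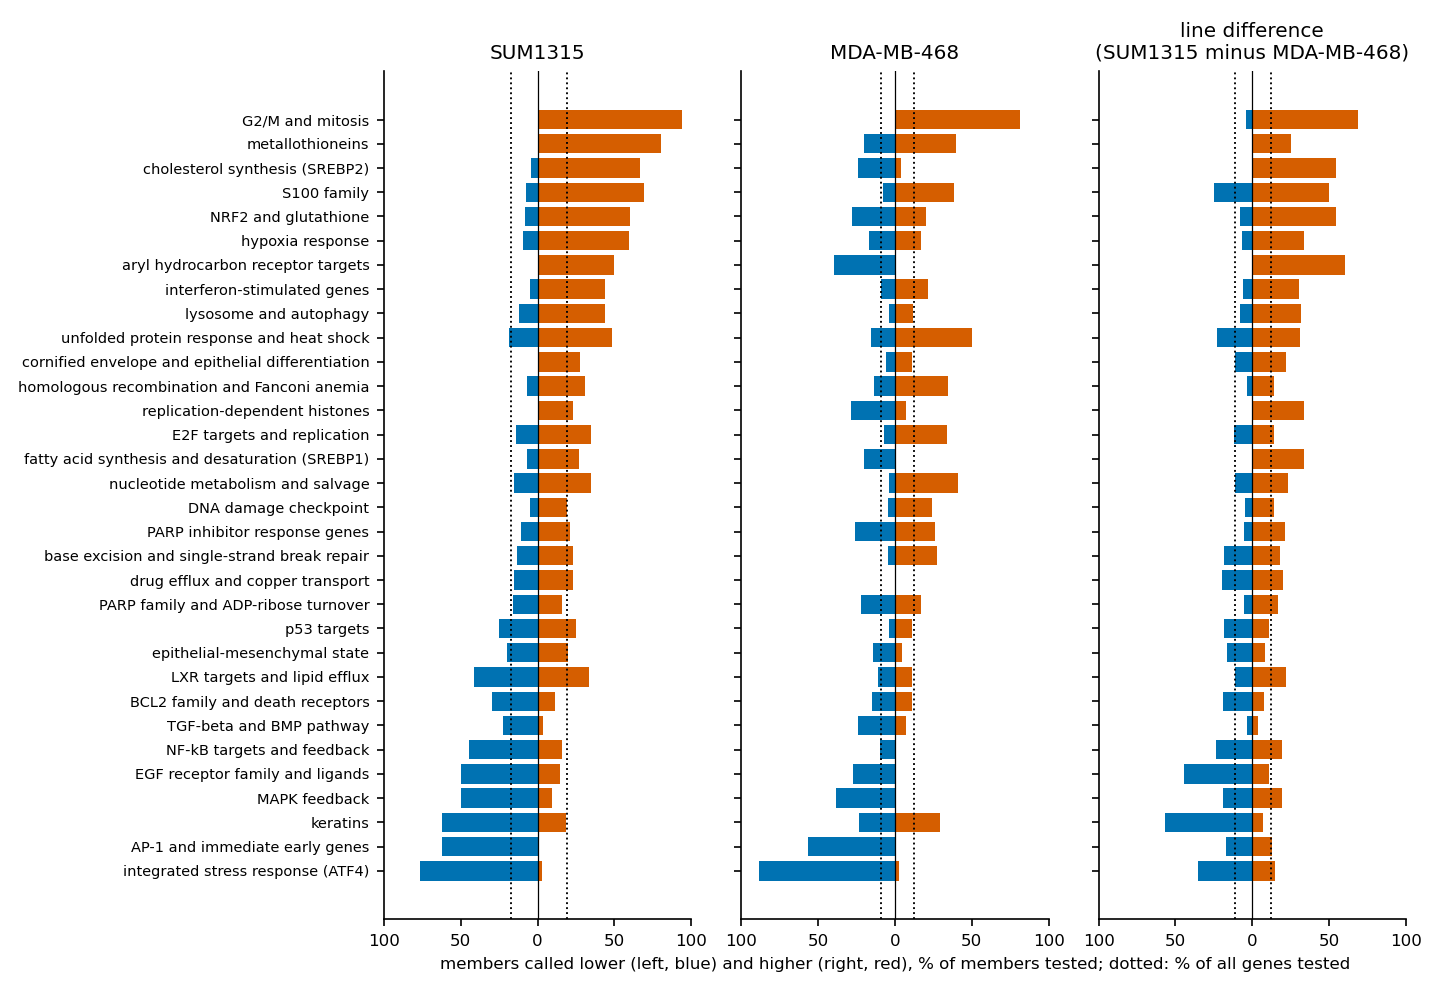
Percent of tested members of each gene list called higher (right) and lower (left) with olaparib in SUM1315, in MDA-MB-468 and for the line difference, with dotted lines at the percent of all genes tested. G2 and mitosis genes extend far to the right and the ATF4 program far to the left in both lines, and cholesterol synthesis extends to the right in SUM1315 and for the difference only.

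Transcripts of the drug's targets had small log2 fold changes. PARP1 had 1082, 1037 and 1356 counts without and 1394, 1329 and 1277 with olaparib in SUM1315, groups that overlapped, and 1089, 1051 and 1063 without and 1322, 1244 and 1338 with olaparib in MDA-MB-468, where the treated libraries lay above the controls. The log2 fold changes were 0.21 (SE 0.09, adjusted p = 0.0568) and 0.28 (SE 0.07, adjusted p = 0.00137), and the line difference was -0.07 (SE 0.11, adjusted p = 0.686). PARP2 had 0.28 (SE 0.14, adjusted p = 0.122) and 0.27 (SE 0.07, adjusted p = 0.00444), with a line difference of 0.01 (adjusted p = 0.965). PARG, which removes ADP-ribose chains, had 0.33 (SE 0.20, adjusted p = 0.205) in SUM1315 and -0.40 (SE 0.14, adjusted p = 0.029) in MDA-MB-468, the latter lost without control 2 or 3 (adjusted p = 0.077 and 0.122) or without olaparib 1 or 2 (0.123 and 0.0597). Of the PARP family and ADP-ribose genes as a whole, 3 of 19 were higher and 3 lower in SUM1315 and 3 of 18 were higher and 4 lower in MDA-MB-468. Of all genes tested, 18.9% were higher and 17.1% lower in SUM1315 and 12.4% and 9.11% in MDA-MB-468, and the counts of this list and of the repair, checkpoint, p53 and survival lists that follow are to be read against those shares.

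Among base excision and single-strand break repair genes, 5 of 22 were higher and 3 lower in SUM1315 and 6 of 22 were higher and 1 lower in MDA-MB-468. PCNA, the replication clamp, had log2 fold changes of 1.01 (SE 0.11, adjusted p = 3.66e-09) and 0.19 (SE 0.06, adjusted p = 0.0234) and a line difference of 0.82 (SE 0.12, adjusted p = 1.40e-06). The call in MDA-MB-468 was lost without control 2, olaparib 1 or olaparib 2 (adjusted p = 0.127, 0.0994 and 0.147). NEIL2, a DNA glycosylase, had 194, 202 and 259 counts without and 149.7, 129 and 121 with olaparib in SUM1315, and 118, 124 and 116 without and 156, 174 and 177 with olaparib in MDA-MB-468. It fell in the first line (-0.70) and rose in the second (0.49), with a line difference of -1.20 (SE 0.24, adjusted p = 0.000115).

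Homologous recombination and Fanconi anemia genes were higher for 9 of 29 and lower for 2 in SUM1315 and higher for 10 and lower for 4 of 29 in MDA-MB-468, with 6 higher and 2 lower in both. UBE2T, the ubiquitin-conjugating enzyme of the Fanconi pathway, had 129.5, 181 and 61.4 counts without and 439, 491 and 471 with olaparib in SUM1315, and 444, 387 and 449 without and 541, 625 and 649 with olaparib in MDA-MB-468. Control 3 of SUM1315 was the lowest library. These are log2 fold changes of 2.04 (SE 0.21, adjusted p = 1.67e-09) and 0.50 (SE 0.08, adjusted p = 3.47e-06), with a line difference of 1.53 (SE 0.24, adjusted p = 1.75e-06). EXO1, which resects DNA ends, rose in SUM1315 (1.46 (SE 0.21, adjusted p = 1.07e-06)) and had -0.10 (SE 0.11, adjusted p = 0.608) in MDA-MB-468. RBBP8 (CtIP), which starts resection, fell in both lines (-0.98 (SE 0.12, adjusted p = 1.25e-07) and -0.41 (SE 0.09, adjusted p = 0.000763)).

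Checkpoint genes were higher for 4 of 21 in SUM1315, close to the share of all genes, and lower for 1, and were higher for 5 and lower for 1 in MDA-MB-468. Of p53 targets, 7 of 28 were higher and 7 lower in SUM1315 and 3 of 27 were higher and 1 lower in MDA-MB-468. According to the paper, both lines express mutant p53. CDKN1A, the CDK inhibitor p21, had 656, 604 and 653 counts without and 1035, 996 and 1032 with olaparib in SUM1315, a log2 fold change of 0.68 (SE 0.08, adjusted p = 6.56e-08), and 0.48 (SE 0.21, adjusted p = 0.102) in MDA-MB-468. MDM2, the p53 ligase, had -0.26 (SE 0.11, adjusted p = 0.0585) and -0.08 (SE 0.08, adjusted p = 0.542). AEN, a nuclease of apoptosis, fell in SUM1315 (-1.54 (SE 0.14, adjusted p = 2.56e-10)), and SESN1, a sestrin, rose there (1.32 (SE 0.11, adjusted p = 1.70e-11)). Of genes linked to the response to PARP inhibitors, 4 of 19 were higher and 2 lower in SUM1315 and 5 of 19 were higher and 5 lower in MDA-MB-468. SLFN11, which blocks stressed replication forks, had 173, 169 and 181 counts without and 259.6, 297 and 267 with olaparib in SUM1315 (0.65 (SE 0.14, adjusted p = 0.000435)), and -0.09 (SE 0.12, adjusted p = 0.656) in MDA-MB-468, with a line difference of 0.74 (SE 0.18, adjusted p = 0.00132).

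Of the BCL2 family and death receptors, 8 of 27 were lower and 3 higher in SUM1315 and 4 of 27 were lower and 3 higher in MDA-MB-468. BCL2L1, the survival protein BCL-XL, had 1338, 1230.0 and 1977 counts without and 459, 496 and 474 with olaparib in SUM1315, and 124, 127 and 131 without and 100.3, 86 and 101 with olaparib in MDA-MB-468. The log2 fold changes of BCL2L1 were -1.64 (SE 0.14, adjusted p = 9.95e-11) and -0.41 (SE 0.17, adjusted p = 0.07), with a line difference of -1.23 (SE 0.22, adjusted p = 3.59e-05). MCL1, another survival protein, fell in both lines (-1.09 (SE 0.13, adjusted p = 2.65e-08) and -0.32 (SE 0.05, adjusted p = 1.31e-05)). CASP8, the initiator caspase, rose in SUM1315 (1.63 (SE 0.26, adjusted p = 7.24e-06)) with untreated counts that ranged from 87 to 328.

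The remaining lists are given by counts, to be read against 18.9% of all genes tested higher and 17.1% lower in SUM1315 and 12.4% and 9.11% in MDA-MB-468. Unfolded protein response and heat shock genes were higher for 13 of 27 and lower for 5 in SUM1315 and higher for 13 and lower for 4 of 26 in MDA-MB-468. Lysosome and autophagy genes were higher for 11 of 25 and lower for 3 in SUM1315 and higher for 3 and lower for 1 of 25 in MDA-MB-468. TGF-beta and BMP pathway genes were lower for 7 of 31 and higher for 1 in SUM1315 and lower for 7 and higher for 2 of 29 in MDA-MB-468. The epithelial-mesenchymal list had 4 higher and 4 lower of 20 in SUM1315 and 1 higher and 3 lower of 21 in MDA-MB-468. The cornified envelope list had 3 higher and 0 lower of 11, and 2 higher and 1 lower of 18. Drug efflux and copper transport genes had 3 higher and 2 lower of 13, and 0 of 10 called. Where a count of a list was 0 in limma, at most 2 members had an unadjusted p under 0.05, and edgeR and DESeq2 called at most 1. None of the 15 mitochondrially encoded transcripts is among the genes of the table.

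Some DEGs could be tested in 1 line only, because the other line has almost no reads. In SUM1315, MT1E, a metallothionein, had 166, 168 and 92.4 counts without and 1677, 1579 and 1564 with olaparib, a log2 fold change of 3.54 (SE 0.13, adjusted p = 1.61e-20), and it had 0 in all 6 MDA-MB-468 libraries. KRT34, a hair keratin, and SH2D5, an SH2-domain protein, fell there from 39 to 50 and 45 to 76 counts to at most 3 and 7. In MDA-MB-468, the noncoding LINC01447 and IL22RA2, a decoy receptor for interleukin 22, fell (-2.51 (SE 0.26, adjusted p = 1.08e-10) and -2.20 (SE 0.28, adjusted p = 1.32e-08)), and both had at most 3 counts in SUM1315.

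The genes called also differed in length. The median genomic span was 29.4 kb for genes tested in SUM1315, 22.8 kb for those higher and 34.0 kb for those lower, and 28.6, 16.9 and 33.6 kb in MDA-MB-468. Genes higher in both lines had a median span of 16.4 kb and genes lower in both of 32.6 kb. Spans were known for 98.3% to 99.3% of the genes in these groups.

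The effect of olaparib was read again in 24 libraries that the comparisons above do not use, as olaparib with CDDP against the same CDDP dose alone. With the lower and higher CDDP doses in SUM1315, 5.22% and 6.32% of genes tested were higher and 10.1% and 6.52% lower. In MDA-MB-468, 1.85% and 4.63% were higher and 2.03% and 7.29% lower. For the line difference at the lower doses, 2.38% had a higher and 6.58% a lower effect in SUM1315, and 5.67% and 5.84% did at the higher doses. Fewer genes were called than for olaparib alone in each case. Counts of list members beside CDDP are to be read against these shares and not against those without CDDP.

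The genes that moved the same way in both lines without CDDP were read beside it in each line. Of the 412 genes lower in both lines, 30.3% and 23.5% were called lower in SUM1315 at the lower and higher CDDP doses, against 10.1% and 6.52% of all genes, and 1.7% and 3.4% were called higher. In MDA-MB-468, 5.1% and 10.9% of them were lower, against 2.03% and 7.29% of all genes, and 5.1% and 13.1% were higher, against 1.85% and 4.63%. Of ATF4 program members, 22 and 14 of 34 were lower beside CDDP in SUM1315, against 10.1% and 6.52% of all genes. In MDA-MB-468, 6 and 5 were higher, against 1.85% and 4.63% of all genes. There, 4 were lower at the higher dose, against 7.29%. Of the shared rises, 8.76% and 6.29% of the 731 genes were called higher in SUM1315, against 5.22% and 6.32% of all genes, and 11.5% and 8.62% lower, against 10.1% and 6.52%. In MDA-MB-468, 3.69% and 4.92% of them were higher, against 1.85% and 4.63%, and 4.51% and 18.3% were lower, against 2.03% and 7.29%. G2 and mitosis genes beside CDDP were lower for 3 and 4 of 48 in SUM1315, against 10.1% and 6.52% of all genes. At most 1 was higher in that line. In MDA-MB-468, 5 and 8 of 48 were higher, against 1.85% and 4.63% of all genes. There, 3 were lower at the higher dose, against 7.29%. E2F targets were lower for 21 and 20 of 43 in SUM1315, against 10.1% and 6.52% of all genes. Immediate early genes were lower for 8 and 4 of 24 and higher for 0 and 2 in SUM1315. In MDA-MB-468, 1 and 3 of 23 were lower and 4 and 0 higher. Their medians in MDA-MB-468 were 0.15 and -0.14, against -0.52 without CDDP.

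Where these lists stood in each condition is part of the same reading. The mean of the G2 and mitosis list in SUM1315, on the log2 scale against the untreated libraries, was 0.97 ± 0.02 (SD, n = 3) with olaparib and 1.08 ± 0.02 and 0.97 ± 0.02 with CDDP alone at 2 and 4 µM. It was 0.66 ± 0.01 in OlaR cells without CDDP. The untreated SUM1315 libraries, with a SD of 0.06, thus stood below every other SUM1315 condition for these genes. The cholesterol list had the same form, at 0.74 ± 0.10 with olaparib, 0.72 ± 0.07 and 0.72 ± 0.04 with CDDP alone and 0.58 ± 0.15 in OlaR cells. In MDA-MB-468 the G2 and mitosis list was at 0.41 ± 0.02 with olaparib, at 0 ± 0.03 and -0.18 ± 0.02 with CDDP alone at 1 and 2.5 µM and at 0.13 in OlaR cells. The part of the untreated SUM1315 libraries in these rises was not tested.

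The ATF4 list stood lower with olaparib than with CDDP in SUM1315, at -0.93 ± 0.03 with olaparib, -0.22 ± 0.08 and -0.35 ± 0.03 with CDDP alone, and -0.75 ± 0.03 and -0.68 ± 0.03 with both drugs. In OlaR SUM1315 cells it was at -1.81 ± 0.04. In MDA-MB-468 it was at -0.74 ± 0.02 with olaparib, -0.37 ± 0.07 and 0.11 ± 0.03 with CDDP alone, and -0.17 ± 0.01 and 0.13 ± 0.04 with both. The NRF2 list in SUM1315 was at 0.46 ± 0.03 with olaparib and 0.11 ± 0.05 and 0.11 ± 0.01 with CDDP alone. The keratin list in SUM1315 was at -1.22 ± 0.09 with olaparib and at -1.22 ± 0.09 and -1.31 ± 0.21 with both drugs, against -0.45 ± 0.20 and -0.53 ± 0.21 with CDDP alone, and at 1.01 ± 0.16 in OlaR cells.

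**Figure D4:**
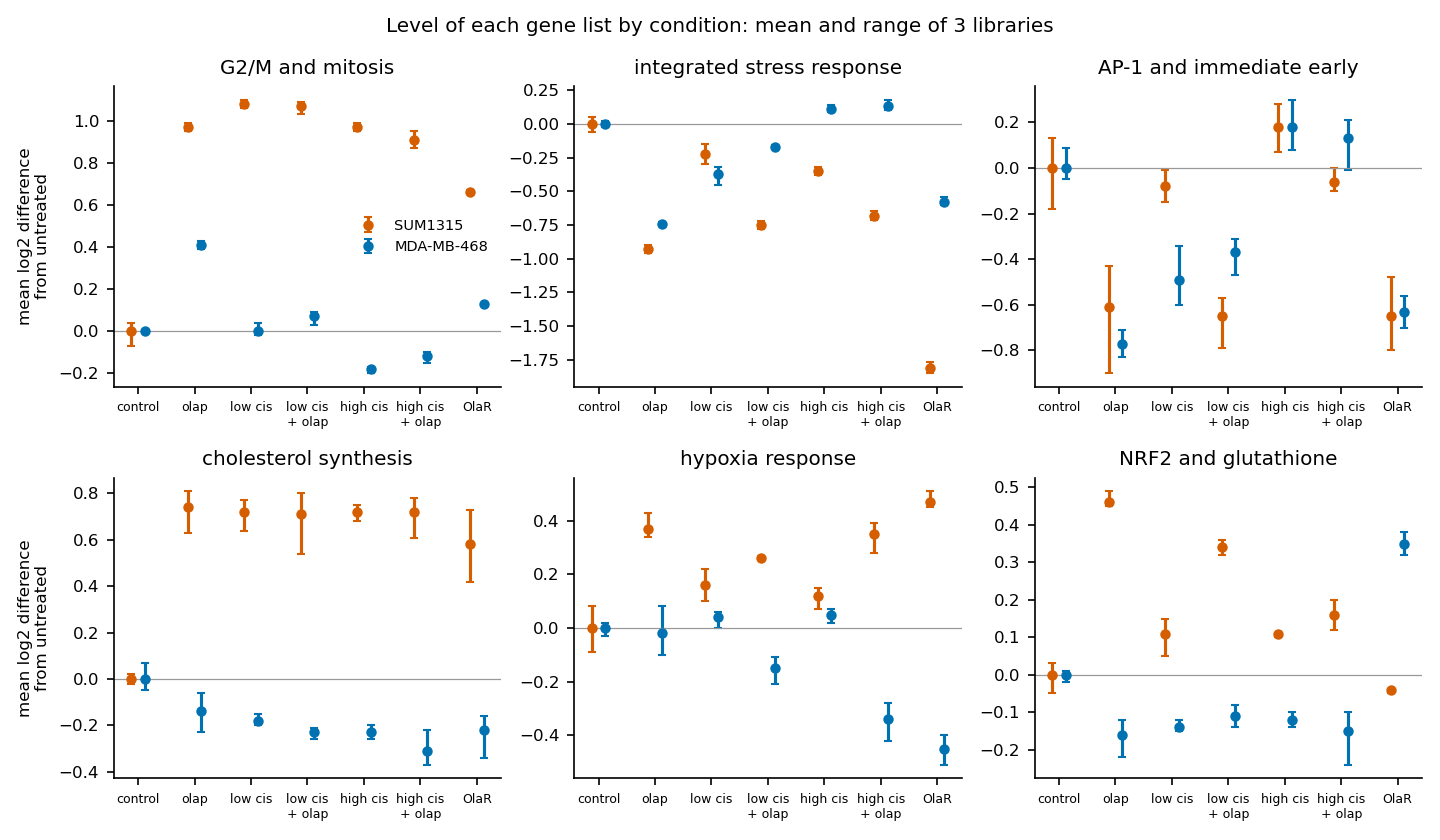
Mean log2 level of 6 gene lists against the untreated libraries of the same line (vertical axis) in untreated, olaparib, CDDP, combination and OlaR libraries of each line (horizontal axis). Points are means of 3 libraries and bars run from the lowest to the highest library. In SUM1315 the G2 and mitosis and the cholesterol lists are above 0 in every other condition plotted, while the ATF4 list falls most with olaparib and in OlaR cells.

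Some line differences were met again beside CDDP and others were not. Of all genes tested, 2.38% and 5.67% were called higher and 6.58% and 5.84% lower at the lower and higher CDDP doses. For the G2 and mitosis list, 1 of 48 was higher and 4 lower at the lower doses, and 1 and 2 at the higher. Its median differences were -0.10 and -0.12, against 0.56 without CDDP. For cholesterol genes, 1 and 5 of 24 were higher and 0 lower, with medians of 0.01 and 0.08 against 0.80. For interferon-stimulated genes, 0 and 1 of 33 were higher and 0 lower, with medians of 0.01 and 0 against 0.69. For NRF2 and glutathione genes, 5 and 4 of 24 were higher and 1 and 0 lower, with medians of 0.19 and 0.03 against 0.64. Of 34 ATF4 program members, 27 and 10 were lower and 0 and 1 higher. Of 30 hypoxia genes, 8 and 14 were higher and 3 and 1 lower. Of the 1457 genes with a higher effect in SUM1315, 6.73% and 12.8% were called the same way at the lower and higher CDDP doses. The shares of all genes tested were 2.38% and 5.67%, and 3.71% and 3.16% of the 1457 were called the opposite way. Of the 1315 with a lower effect, 21.2% and 16.7% were called the same way, against 6.58% and 5.84% of all genes. The opposite call was made for 0.989% and 4.87% of the 1315. EDN1 had line differences of -3.53 and -2.58 beside CDDP (adjusted p = 1.04e-06 and 0.00018), and CA9 had 2.90 and 3.53 (adjusted p = 7.13e-05 and 1.60e-06). The same held for S100A8 (1.34 and 2.12), CYP1B1 (1.83 and 1.43), MT2A (0.52 and 0.73), ALDOC (1.20 and 1.39), DUSP5 (-1.42 and -0.68), NUPR1 (-1.17 and -0.60) and UPP1 (-0.80 and -0.87), all called. ETV1 had -0.28 and 0.29, FADS3 0.02 and -0.44, IFNGR1 -0.06 and 0.29 and OLFM2 0.09 and 0.44, none of them called. SLC7A11 had the opposite sign, with -0.72 (adjusted p = 0.00596) and -0.31 (adjusted p = 0.278) beside CDDP against 2.05 without it.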

How the data were processed

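Libraries were made with QuantSeq 3′ FWD, which reads the 3′ ends of polyadenylated RNA, from cells of 2 breast cancer lines. Reads were demultiplexed with CASAVA 1.8.2 and aligned to hg38, and the authors ran edgeR's quasi-likelihood test. The labels also list FastQC, STAR and HTSeq. The deposited signal is the authors' adjusted read count for each of 27470 genes, scaled to a library size of 5585170 that is common to all 54 libraries. All 1483380 of its values (100%) came back, with a largest relative difference of 3.53e-09, from edgeR pseudo-counts at a common dispersion of 0.0104 computed from whole reads. Gene names had been turned into dates for 27 genes and 2 names were repeated. The other deposited tables hold the authors' own log2 fold changes, p-values and false discovery rates, and none of these was used.

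A count test had been planned. Because the adjusted values are not whole, they were tested as log2(value + 1) in limma 3.58.1 (R 4.3.3), a scale that understates the changes of low genes. Genes were tested in a line where 3 or more of its 27 libraries had a value of 10 or above. Each line was fitted with its 27 libraries in 9 conditions, and the line difference with all 54 libraries on genes that passed in both lines. P-values were adjusted by Benjamini-Hochberg over all genes tested, a gene was called at an adjusted p of 0.05 or less, and a DEG also had a fold change of at least 2. The whole reads were tested with edgeR 4.0.16 and DESeq2 1.42.0 as alternatives, beside other pseudocounts, filters and sets of libraries. No source says that replicates were separate cultures, so p-values measure a spread between libraries within groups that may be technical. All conditions in a fit set that spread, and the line difference used 1 spread per gene for both lines. Libraries were sequenced in batches of 27, and which libraries shared one is not given in the sources used here.

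The members and the 33 gene lists were chosen with earlier results of these data known. Genes were named by a rule on the size of the change, no overlap of the groups, a mean value of at least 20 and, within each list, the p of the line difference, up to 4 to a list. PARP1, PARP2 and PARG were always named. Named outside the rule, after their values were seen, were CDC20, NUSAP1, ASNS, AARS, TRIB3, DDIT3, EGR1, DUSP6, SQLE, HMOX1, VEGFA, ISG15, CDKN1A and MDM2. Some genes and promoters are not reported here. Promoters and positions are from RefSeq on GRCh38.p14, which matched 14121 of the 14390 names tested in either line, 11126 of them with a promoter. Scripts were tested on simulated data.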

Additional observations from a re-analysis of the deposited data

Results flagged for a closer look

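The olaparib effect differed between the lines for many genes in a test of the difference itself, and these results are listed for that reason. The effect was higher in SUM1315 for 1457 genes and lower for 1315. All values below are log2 line differences, SUM1315 minus MDA-MB-468, with an adjusted p at or under 0.05 in limma.

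Among genes of G2, mitosis and replication, the difference was 0.81 for ANLN, 0.89 for CDC20, 0.60 for NUSAP1, 1.53 for CENPA, 1.23 for HMMR, 1.06 for SGO2, 0.72 for SPC24, 0.34 for RRM2, 0.74 for TK1, -0.44 for CDC6 and 0.82 for PCNA. Among repair and PARP inhibitor genes, it was 1.53 for UBE2T, 1.56 for EXO1, -0.57 for RBBP8, -1.20 for NEIL2, 0.73 for PARG and 0.74 for SLFN11. Among ATF4 targets, it was -1.19 for ATF4, 1.12 for CHAC1, -0.76 for ASNS, -0.77 for AARS, -0.42 for TRIB3, -1.60 for NUPR1, -1.28 for GPT2 and 2.05 for SLC7A11. Among immediate early, MAP kinase and EGF genes, it was 1.25 for CTGF, -0.85 for IER2, 1.69 for NR4A1, -1.84 for DUSP5, -0.59 for CCND1, -2.19 for HBEGF, -1.34 for TGFA, -1.77 for AREG, -0.62 for ERRFI1 and 2.63 for ETV1.

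Among sterol, lipid and oxidative stress genes, it was 1.66 for INSIG1, 1.52 for MSMO1, 0.93 for FDFT1, 1.01 for DHCR7, 1.16 for SREBF1, 1.12 for NQO1, 1.22 for FTL, 1.72 for AKR1C1, 0.94 for HMOX1 and 1.72 for MT2A. Among hypoxia genes, it was 3.64 for CA9, 2.56 for ALDOC, 1.09 for LDHA and -3.35 for EDN1. Among interferon and NF-kB genes, it was 3.09 for IFIT2, 2.19 for SAMD9, 2.22 for IRF7, 0.93 for BST2, 0.70 for SOD2 and 1.77 for CSF1. Among keratins, S100 proteins and aryl hydrocarbon receptor targets, it was -2.94 for KRT16, -0.94 for KRT7, 1.28 for S100A8, 1.03 for S100A10, 2.16 for TIPARP and 1.28 for CYP1B1. Among p53 and survival genes, it was -1.38 for AEN, 0.98 for SESN1, -1.23 for BCL2L1, -0.77 for MCL1 and 1.89 for CASP8. Among other genes, it was 2.99 for DHRS2, -2.71 for FADS3, 1.84 for PEG10, 1.99 for IFNGR1, -2.43 for SNORA11F, 3.03 for AQP3, 3.15 for FAM83A, 2.72 for SOCS3, 3.23 for CRTC2, -3.43 for OLFM2, -2.34 for SCUBE3, -2.07 for LTB4R, -2.05 for WNT10B, -0.65 for THBS1, -1.60 for UPP1 and -0.78 for CTPS1. Groups of 3 libraries are too small for a test of single outlying values, and none was run. The difference lost its call in 1 or more fits without 1 library for RRM2, CRTC2, TRIB3, AREG, THBS1 and PARG. For TRIB3 this was without SUM1315 control 1 (adjusted p = 0.0632), MDA-MB-468 control 2 (0.0502) or MDA-MB-468 olaparib 3 (0.0698). For AREG it was without SUM1315 control 2 (0.055), SUM1315 olaparib 2 (0.0566), MDA-MB-468 control 3 (-1.02, 0.215) or MDA-MB-468 olaparib 3 (-1.26, 0.154). THBS1 lost it without SUM1315 olaparib 1 (-0.45, 0.0815) and PARG without SUM1315 olaparib 3 (0.61, 0.0671).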

How the results depend on the processing

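Counts of genes called in limma kept within 1.5 times of those reported under the other pseudocounts and filters, under edgeR and DESeq2 on the whole reads and with 1 library left out, apart from the counts given here. With a fold change of at least 2, 655 genes were higher and 573 lower in SUM1315, 85 and 141 in MDA-MB-468, 11 and 29 in both lines (the 11 were 6 with a filter of at least 30, 5 with only the groups compared and 7 to 11 with 1 library left out), and the line difference held 443 higher and 326 lower in SUM1315. Without a filter the genes of at least 2-fold were 662 and 1454 in SUM1315 and the line differences 476 and 832, in 22224 and 20453 genes tested in place of 13133 and 11755. On the whole reads, edgeR called 2446 genes higher and 2279 lower in SUM1315, 1724 and 1544 in MDA-MB-468, and 1624 and 1456 for the difference. With a pseudocount of 5 those of at least 2-fold in MDA-MB-468 were 56 and 97.

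With only the groups compared in the fit, which leaves fewer libraries to set the spread, 478 genes were higher and 286 lower in both lines and 89 moved in opposite directions. Left out singly, a library gave 1954 to 2419 higher and 1713 to 2083 lower in SUM1315, 1277 to 1429 and 898 to 1040 in MDA-MB-468, and 1082 to 1652 and 1028 to 1389 for the line difference. The lowest counts in SUM1315 and for the difference came without SUM1315 control 3. In an alternative chosen after seeing the data, SUM1315 control 3 and olaparib 3 were left out together, and 1838 genes were higher and 1513 lower in that line, with 138 in opposite directions, 7 of at least 2-fold higher in both lines and 207 line differences of at least 2-fold lower. The cause was not tested.

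Replicate numbers did not pair the libraries: deviations of same-numbered control and olaparib libraries correlated at -0.013, 0.064 and 0.04 in SUM1315 and 0.01, -0.027 and -0.025 in MDA-MB-468. With the replicate block, 2472 genes were higher and 2218 lower in SUM1315, 1583 and 1167 in MDA-MB-468, 1452 and 1307 for the difference, and 727, 404 and 217 higher, lower and opposite in both. Of the tests of named genes, 64 lost and 48 gained a call under other settings, 169 lost and 33 gained one with libraries left out, and none that was called changed direction. The reads behind low genes limit their precision.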
